A study of Mus musculus with 2 samples.

Results

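The Mir148 and Mir152 family of mouse miRNA genes has 3 members, Mir148a, Mir148b and Mir152. They were found by name in GENCODE M21, and all 3 were among the 1973 miRNA genes counted. Small RNA libraries were made from total RNA of whole skeletal muscle of the mouse strain B6NCrl on postnatal day 0. The 2 libraries came from 2 pups of 1 litter and are called replicate 1 (pup 1) and replicate 2 (pup 2). The pups carried no treatment or engineered allele according to the labels, and their sex was not collected. Both libraries form 1 group, so the data describe levels in newborn muscle and the difference between these libraries, not a contrast of conditions. Each pup gave 1 library, so a difference between animals and a difference in dissection or library preparation cannot be told apart.

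A miRNA is cut from a hairpin precursor and guides Argonaute proteins to messenger RNAs, mostly through its seed, bases 2 to 8 counted from the 5′ end. The miR-148 and miR-152 family is known for acting on Dnmt1, the maintenance DNA methyltransferase, and miR-148a is abundant in liver and has been described to favour differentiation of muscle precursor cells. The -3p arm of the hairpin is the usual guide strand of the family.

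The sequences are shown because they define the family and the bases by which its members differ. The mature -3p forms below are from RefSeq (GRCm38.p6), 5′ to 3′, with the seed in capitals.
mmu-miR-148a-3p: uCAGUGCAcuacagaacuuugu
mmu-miR-148b-3p: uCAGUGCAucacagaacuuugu
mmu-miR-152-3p: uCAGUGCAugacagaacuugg
All 3 carry the seed CAGUGCA, and no other of the 1738 mature entries in the RefSeq table has it at bases 2 to 8. The differences lie just after the seed and near the 3′ end. Counted from 1 at the 5′ end, miR-148a-3p differs from miR-148b-3p by C9U and U10C, with 20 of 22 bases the same. It differs from miR-152-3p by C9U, U10G and U20G over the 21 bases that both have. Between miR-148b-3p and miR-152-3p the differences are C10G and U20G.

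The opposite arms are shown because a gene count sums reads of both arms.
mmu-miR-148a-5p: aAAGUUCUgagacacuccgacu
mmu-miR-148b-5p: gAAGUUCUguuauacacucaggcu
mmu-miR-152-5p: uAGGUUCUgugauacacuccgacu
The -5p forms of Mir148a and Mir148b share the seed AAGUUCU, whereas that of Mir152 is AGGUUCU. Position by position from the 5′ end, the -5p forms of Mir148a and Mir148b match at 13 of 22 bases, those of Mir148a and Mir152 at 12 of 22, and those of Mir148b and Mir152 at 19 of 24. The -5p forms of Mir148a and Mir152 also hold an identical run of 11 bases, longer than the run of 9 that their -3p forms share. The deposited counts are per gene, so how many reads belong to each arm was not analysed here.

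The whole hairpins are shown, with the -3p arm in capitals, because counts are per gene and the gene is the whole hairpin.
Mir148a hairpin: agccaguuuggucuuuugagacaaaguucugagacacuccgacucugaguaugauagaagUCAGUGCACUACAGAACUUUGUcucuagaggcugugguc
Mir148b hairpin: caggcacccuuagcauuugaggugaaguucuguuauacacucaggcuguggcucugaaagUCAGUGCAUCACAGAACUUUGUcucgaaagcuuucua
Mir152 hairpin: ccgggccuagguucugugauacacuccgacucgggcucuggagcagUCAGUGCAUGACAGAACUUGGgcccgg
The longest identical stretch is 15 bases between the hairpins of Mir148a and Mir148b, 12 between Mir148a and Mir152 and 11 between Mir148b and Mir152. Against every miRNA gene outside the family, on either strand, the longest stretch was 11 bases for Mir148a, 12 for Mir148b and 13 for Mir152. None of the 3 shares a stretch of 20 bases with another miRNA locus. Reads that map to several places were listed apart from the gene counts and made up 30.2% and 29.9% of all reads.

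The genes lie on 3 chromosomes (mm10, GENCODE M21). Mir148a (ENSMUSG00000065505.1, chr6:51269812-51269910, minus strand) lies outside any other annotated gene, and the nearest one is the lincRNA gene Gm32479, 13622 bases away. Mir148b (ENSMUSG00000065560.1, chr15:103285125-103285221, plus strand) lies in intron 1 of Copz1, on the same strand, 12411 bases from the start of the host gene. Mir152 (ENSMUSG00000065515.1, chr11:96850393-96850465, plus strand) lies in intron 1 of Copz2, also on the same strand, 523 bases from its start. It was intronic in all 3 Copz2 transcripts that span it, and Mir148b was intronic in all 4 of Copz1. Copz1 and Copz2 are paralogous genes for the zeta subunit of coatomer, the coat of vesicles in the early secretory pathway. The libraries hold small RNA, so the host transcripts were not measured.

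Replicate 1 held 3754895 counts on the genes' own strand and replicate 2 held 5133949. Levels are given as CPM, the gene's counts scaled to a library total of 1000000. Of the 1973 genes, 373 reached 10 counts in total and were tested, and 311 reached 10 counts in each library. All 3 family members passed both minimums. The tissue label was checked against striated muscle miRNA genes, of which 9 of 10 were listed. They held 8.13% and 8.94% of counts, none was at 0, and Mir206 had the highest count of all genes. Mir206 alone held 298316 of the list's 305436 counts in replicate 1 and 447669 of 458799 in replicate 2. Mir133b, Mir1a-1, Mir133a-1 and Mir133a-2 share at least 20 bases with another locus, so their counts are uncertain. The libraries differed in genes of epithelium and skin, with 7 of 7 listed, none at 0, and 5688 CPM in replicate 1 against 229.6 CPM in replicate 2 summed over the list.

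The family was a minor part of the counts on miRNA genes in newborn muscle, which leave out reads that map to several places. Its members together had 6193 counts in replicate 1, or 0.165% of gene counts (95% interval 0.161 to 0.169, exact Clopper-Pearson). In replicate 2 they had 5423 counts, or 0.106% (0.103 to 0.108). The mean share was 0.135% ± 0.0419 (SD, n = 2), and the intervals of the libraries did not overlap. These intervals, like all below, cover counting error only.

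Mir148a, the member outside a host gene, had the highest level. It had 3991 counts in replicate 1, which is 1063 CPM (exact Poisson 95% interval 1030 to 1096), and 2975 counts in replicate 2, which is 579.5 CPM (558.8 to 600.7). Its mean was 821 ± 342 CPM (SD, n = 2), and replicate 1 was the higher library. Mir152 had 1513 counts or 402.9 CPM (382.9 to 423.8) in replicate 1 and 1699 counts or 330.9 CPM (315.4 to 347.1) in replicate 2, with a mean of 367 ± 50.9 CPM. Mir148b was lowest, with 689 counts or 183.5 CPM (170.0 to 197.7) in replicate 1 and 749 counts or 145.9 CPM (135.6 to 156.7) in replicate 2, and a mean of 165 ± 26.6 CPM.

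The order Mir148a, Mir152, Mir148b was the same in both libraries, and the ranges of the 3 genes did not overlap. The lowest library of Mir148a was 1.44 times the highest of Mir152, and the lowest library of Mir152 was 1.80 times the highest of Mir148b. The mature -3p forms are 22, 22 and 21 bases long, so CPM were compared without a length correction. Divided by hairpin length the order was also the same, with 8.29 CPM per base for Mir148a, 5.03 for Mir152 and 1.70 for Mir148b.

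**Figure D1:**
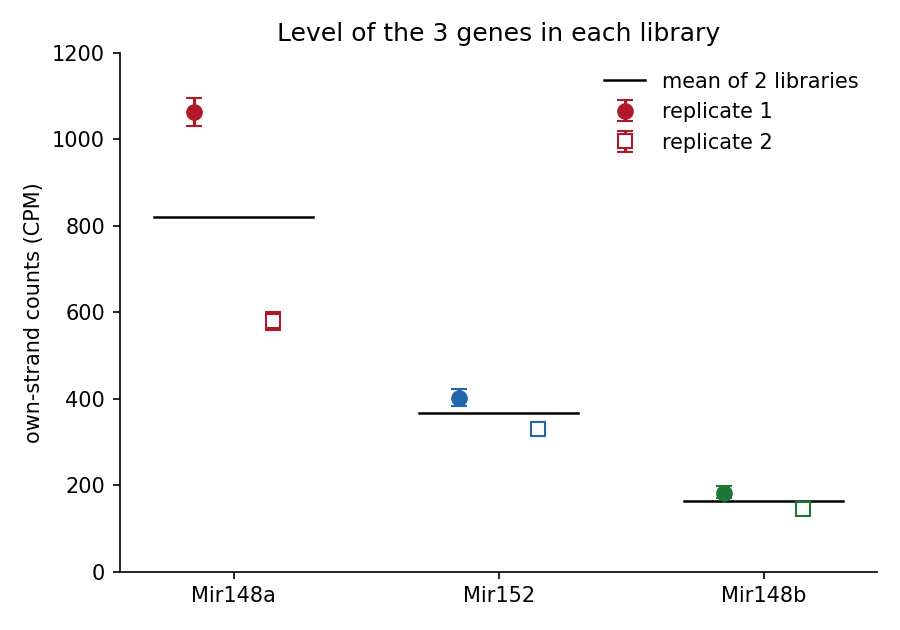
Own-strand counts in CPM (vertical axis, from 0) for Mir148a, Mir152 and Mir148b in replicate 1 (filled circles) and replicate 2 (open squares), with exact Poisson 95% intervals and the mean of both libraries as a black line. Mir148a spans 579.5 to 1063 CPM, a wider gap between the libraries than Mir152 (330.9 to 402.9) or Mir148b (145.9 to 183.5).

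Among all 1973 listed genes Mir148a ranked 97 by mean CPM, Mir152 132 and Mir148b 157. By library, Mir148a ranked 91 in replicate 1 and 106 in replicate 2, Mir152 ranked 127 and 131, and Mir148b 158 and 157. The neighbours of Mir148a in this order were Mir872 (875 ± 55.9 CPM) and Mir16-1 (871 ± 273 CPM) above it and Mir196a-2 (817 ± 167 CPM) and Mir130b (804 ± 115 CPM) below it. Mir152 stood between Mir674 (370 ± 40.0 CPM) and Mir338 (368 ± 13.4 CPM) above and Mir186 (340 ± 23.8 CPM) and Mir412 (330 ± 23.1 CPM) below. Mir148b stood below Mir29a (180 ± 16.9 CPM) and Mir467c (178 ± 18.6 CPM), and above Mir874 (148 ± 23.4 CPM) and Mir182 (137 ± 120 CPM). The library ranges of each member overlapped with those of all 4 of its neighbours, so the exact ranks are not resolved. Among these neighbours, Mir16-1, Mir196a-2 and Mir467c have 20 or more bases in common with another locus, which makes their counts uncertain.

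**Figure D2:**
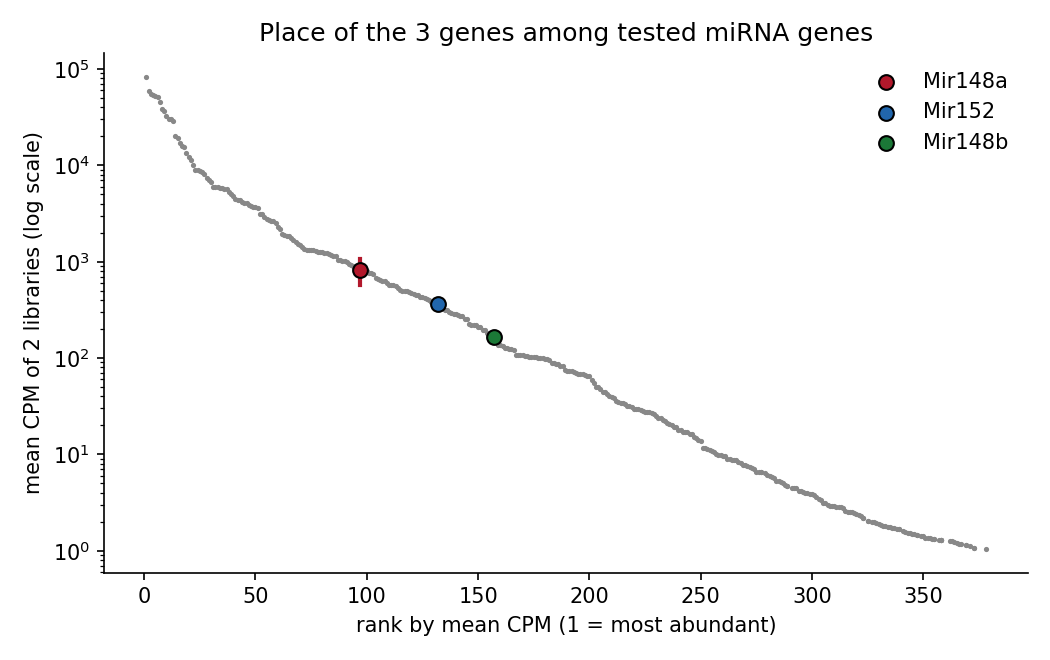
Mean CPM of the 2 libraries (log axis) against rank for the 373 tested miRNA genes (grey points), with the family members in colour and a vertical line from the lower to the higher library. The members lie at ranks 97, 132 and 157, in the middle of the curve and far below the most abundant genes.

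The make-up of the family differed between the libraries, a comparison that does not depend on how the libraries are scaled to each other. Mir148a gave 64.4% of the family's counts in replicate 1 (95% Clopper-Pearson interval 63.2 to 65.6) and 54.9% in replicate 2 (53.5 to 56.2). Mir152 gave 24.4% (23.4 to 25.5) and 31.3% (30.1 to 32.6). Mir148b gave 11.1% (10.4 to 11.9) and 13.8% (12.9 to 14.8). For each gene the intervals of the libraries did not overlap. Mir148a was the largest part in both.

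Taken in pairs, the genes inside the Copz1 and Copz2 introns kept nearly the same proportion. Mir152 had 2.20 times the counts of Mir148b in replicate 1 (95% interval 2.01 to 2.41) and 2.27 times in replicate 2 (2.08 to 2.48), so these intervals overlapped over most of their length. Mir148a had 2.64 times the counts of Mir152 in replicate 1 (2.49 to 2.80) and 1.75 times in replicate 2 (1.65 to 1.86). Against Mir148b it had 5.79 times (5.34 to 6.29) and 3.97 times (3.66 to 4.31). The shift in make-up thus lay in Mir148a against the other members.

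**Figure D3:**
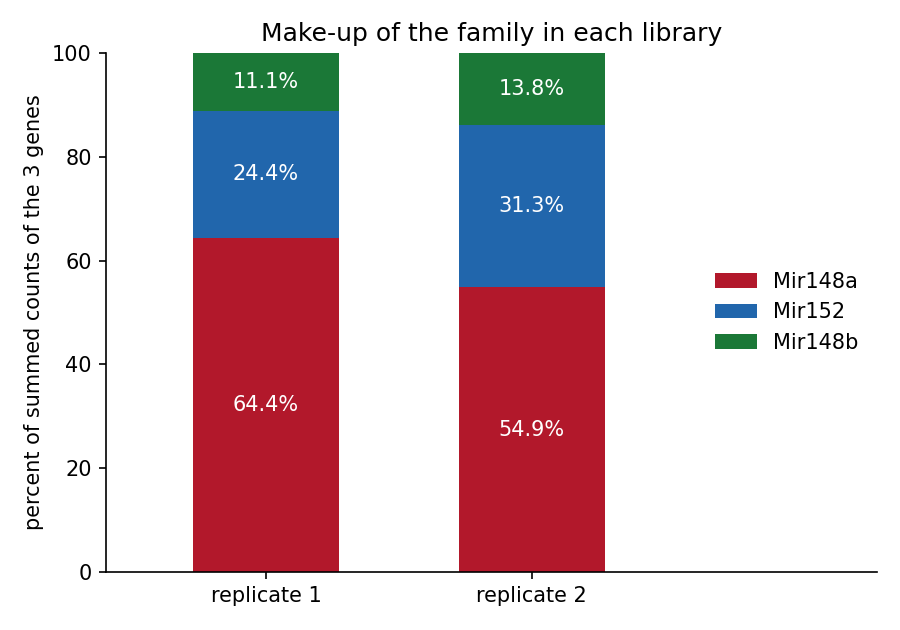
Percent of the summed counts of the 3 genes (vertical axis, 0 to 100) held by Mir148a, Mir152 and Mir148b in replicate 1 and replicate 2, as stacked bars. The part of Mir148a is 64.4% in replicate 1 and 54.9% in replicate 2.

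After TMM scaling, Mir148a differed between the libraries by more than most miRNA genes did, and Mir152 and Mir148b did not. Differences are on the log2 scale, replicate 2 over replicate 1, after TMM scaling, which shifts every ratio by 0.13 from plain CPM. Mir148a had a log2 ratio of -0.74 (95% counting interval -0.81 to -0.67), or 1.67-fold higher in replicate 1, with an adjusted p of 6.53e-100 (exact two-sided binomial test, Benjamini-Hochberg over 373 genes). Mir148b had -0.20 (-0.35 to -0.045), with an adjusted p of 0.0232 by the same exact test. Mir152 had -0.15 (-0.25 to -0.048), with an adjusted p of 0.00860 by the same exact test.

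All 3 members were therefore higher in replicate 1 beyond counting error and 0 of 3 reached 2-fold. Over all tested genes, 23.1% were higher in replicate 1 beyond counting error and 26.0% were higher in replicate 2. With total-count scaling 118 were higher in replicate 1 and 64 in replicate 2, against 86 and 97 with TMM. In either direction, 49.1% of tested genes were beyond counting error with TMM. With the 2-fold minimum, 4.56% were called higher in replicate 1, 0.536% in replicate 2 and 5.09% in all. The median log2 ratio of the 3 members was -0.20, beside 0.0091 over all tested genes. The test compares these libraries and says nothing of pups in general. As a measure of the spread between the libraries, pups and preparations together, edgeR's biological coefficient of variation was 31.9%. It is a single value over all genes, those with very large differences such as Mir205 included. On the same TMM scale the SD of the members was 35.5% of the mean for Mir148a, 9.59% for Mir148b and 7.31% for Mir152.

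The size of the differences separates the members. Among the 177 genes that reached 10 counts in each library and a mean of 100 CPM, the median absolute log2 ratio was 0.22. Of these 177 genes 7 differed at least as much as Mir148a, itself included, 94 at least as much as Mir148b and 112 at least as much as Mir152. Over all 311 genes that reached 10 counts in each library, rarer genes included, the numbers were 32, 196 and 219, which is 10.3%, 63.0% and 70.4%. These numbers hold for TMM scaling only. With total-count scaling the log2 ratios of Mir148b and Mir152 were larger in size, -0.33 and -0.28. How many genes differed as much with that scaling was not counted. The 6 others beyond Mir148a, named after their values were seen, were Mir205, Mir203, Mir140, Mir182 and Mir708, which were higher in replicate 1, and Mir181a-2, which was higher in replicate 2. Mir205 and Mir203 are epithelial and skin miRNAs, and Mir140 is a cartilage miRNA. Their log2 ratios of -5.41, -4.44 and -2.62 were much larger than that of Mir148a.

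**Figure D4:**
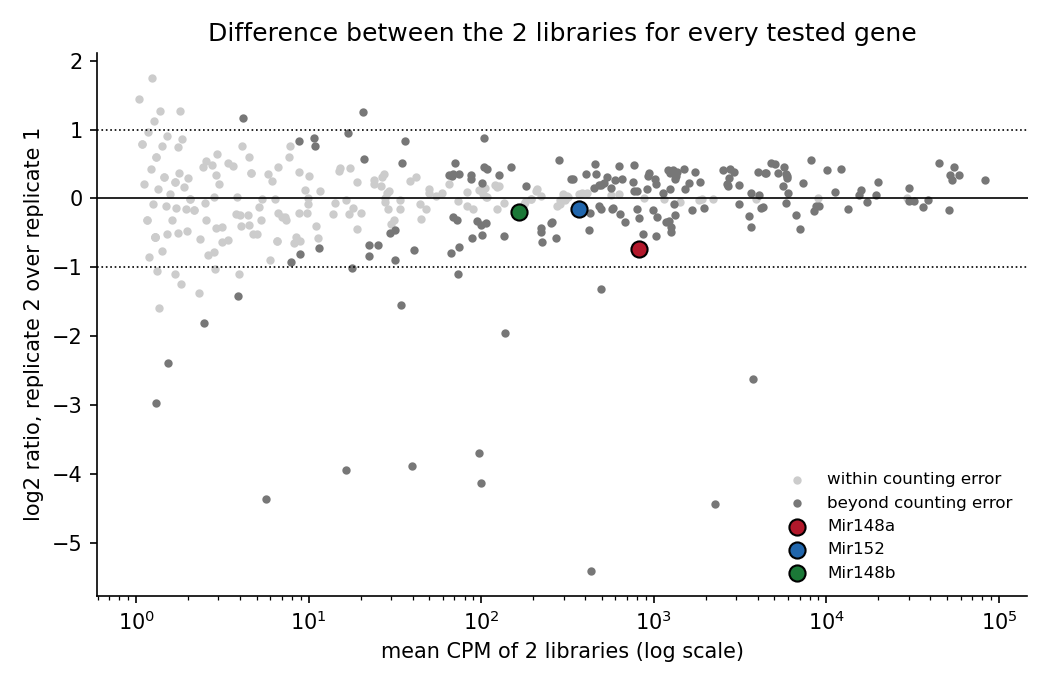
Log2 ratio of replicate 2 over replicate 1 after TMM scaling (vertical axis) against mean CPM (log axis) for the 373 tested genes, dark grey where the adjusted p of the exact binomial test was below the threshold, with dotted lines at 2-fold. Mir148a lies at -0.74, below most genes near its abundance and inside the 2-fold line, and Mir148b (-0.20) and Mir152 (-0.15) lie within the main cloud.

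Markers of other tissues and cell types also differed between the libraries, in both directions, and their part in the difference of Mir148a was not tested. In bulk tissue, fewer cells of a type and less RNA per cell cannot be told apart. The log2 ratios here are of a list's summed counts after TMM scaling, the scale on which Mir148a had -0.74. The epithelium and skin list had -4.50, with 7 of 7 genes called higher in replicate 1, beside 4.56% of all tested genes. The 2 cartilage genes, neither at 0, summed to 7917 CPM in replicate 1 and 1952 CPM in replicate 2, a log2 ratio of -1.89. The genes differed, Mir140 with -2.62 and Mir455 with -0.35.

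Blood cell genes were mixed. Of the white blood cell list 4 of 5 genes were listed, none was at 0, and they summed to 646 and 458 CPM (log2 ratio -0.36). Of these 4, only Mir223, a miRNA of neutrophils and monocytes, was beyond counting error, with 504.9 and 335.2 CPM, and 2 of the 4 had a higher value in each library. With total-count scaling all 4 had a higher value in replicate 1, 2 of them beyond counting error, as were 118 of the 373 tested genes. The red blood cell genes went opposite ways, Mir451a with a log2 ratio of -0.57 and Mir144 with 0.34, and summed to 416 and 299.4 CPM.

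Striated muscle genes lay the other way from Mir148a. All 9 had a higher value in replicate 2, 6 of them beyond counting error (4 with total-count scaling). Over all tested genes, 26.0% were higher in replicate 2 beyond counting error, or 64 of 373 with total-count scaling. The summed counts of the 9, nearly all from Mir206, had a log2 ratio of 0.27, and the median over the 9 was 0.35. The nerve and glia list had 0.37, with 10 of 11 genes listed, 4 at 0 in both libraries (Mir9-2 and the 3 Mir124a genes) and sums of 1342 and 1577 CPM. Of its 4 tested genes, Mir128-1 (0.47) and Mir128-2 (0.49) were beyond counting error, and both share at least 20 bases with another locus. Mir338 had 0.060 and Mir219a-1 had -0.62, neither beyond counting error. The summed counts of the remaining lists were closer to level. The liver list, 4 of 4 listed and none at 0, had 272.7 and 264.3 CPM (0.090), and in it Mir122, the main miRNA of hepatocytes, had 179.8 and 184.8 CPM. The endothelial gene Mir126a had 40785 and 36558 CPM (-0.023). The fibroblast and smooth muscle list, 7 of 7 listed and none at 0, had 45695 and 42101 CPM (0.017). Mir143 held 112616 of its 171580 counts in replicate 1, so the sum mostly follows this gene. The median log2 ratio of the 7 genes was -0.27. In the list 5 genes had a higher value in replicate 1, 4 of them beyond counting error, and 1 was higher in replicate 2 beyond it. Over all tested genes these shares were 23.1% and 26.0%.

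The genes nearest to each member in both level and ratio were found by the Euclidean distance in log2 mean CPM and log2 ratio over 311 genes. For Mir148a these were Mir16-1 (distance 0.24), Mir93 (0.38) and Mir196a-2 (0.46). Mir93, a gene of the Mir106b cluster, had 1267 CPM in replicate 1 and 791.6 CPM in replicate 2. For Mir148b they were Mir467c (0.16), Mir29a (0.19) and Mir350 (0.31). For Mir152 they were Mir674 (0.064), Mir338 (0.21) and Mir125b-2 (0.22). With only 2 libraries this likeness describes 2 numbers per gene.

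Several other miRNAs are reported to act on DNA methyltransferases, and the family was neither their most nor their least abundant part. Of 12 genes in this list, the 3 family members included, all were listed and 11 were tested. Mir143, a smooth muscle and fibroblast miRNA, led with 30088 ± 137 CPM. It was followed by Mir101b at 1248 ± 4.22 CPM and Mir342, located in the gene Evl, at 1228 ± 278 CPM. Mir148a came next, then Mir152. Mir29a had 180 ± 16.9 CPM, Mir185 135 ± 12.9 CPM, Mir101a 120 ± 3.59 CPM and Mir29c 74.8 ± 8.25 CPM. Mir29b-1 had 6 and 5 counts and Mir29b-2 had 6 and 3. The Mir29b, Mir29c and Mir101 genes share at least 20 bases with another locus, so their counts are uncertain. No family member shares such a stretch with another miRNA locus. Matches with mismatches and matches in the rest of the genome were not searched.

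The Mir29 genes act on the de novo methyltransferases Dnmt3a and Dnmt3b. Their 4 genes summed to 263.9 CPM in replicate 1 and 250.1 CPM in replicate 2 as counted, and the Mir148 and Mir152 family to 1649 and 1056 CPM. Because 3 of the 4 Mir29 genes share 20 bases with another locus and such reads may be left out, these sums are not ranked. Beyond counting error, 4 of the 11 tested genes were higher in replicate 1, namely the 3 family members and Mir342 (log2 ratio -0.33), and 3 were higher in replicate 2, namely Mir29c (0.36), Mir101b (0.14) and Mir143 (0.14). Over all tested genes the shares were 23.1% and 26.0%, and 3 of the 4 are the family members already described. With total-count scaling 6 were higher in replicate 1 and 0 in replicate 2 by the exact binomial test. With that scaling 118 and 64 of the 373 tested genes were. The list's median log2 ratio was -0.061, or -0.20 with total-count scaling.

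**Figure D5:**
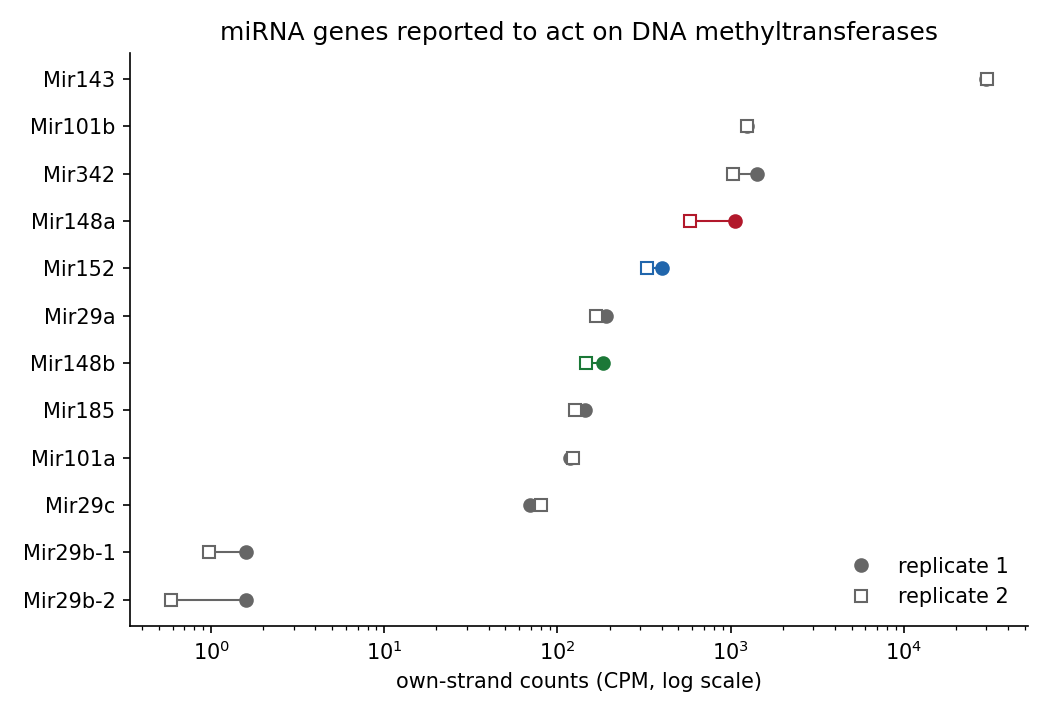
Own-strand counts in CPM (log axis) of the 12 miRNA genes reported to act on DNA methyltransferases, replicate 1 as filled circles and replicate 2 as open squares joined by a line, family members in colour. Of the genes above 10 counts per library, Mir148a has the widest gap, 1063 against 579.5 CPM.

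Mir148b and Mir152 belong to the miRNAs carried in introns of paralogous host genes, and 4 other such sets were compared with them. Mir148b and Mir152 summed to 586.4 CPM in replicate 1 and 476.8 CPM in replicate 2, with Mir152 holding 69.0% of the mean. The Mir26 genes, in introns of Ctdsp phosphatase genes, had 17155 ± 1621 CPM, of which Mir26b held 99.8%. Mir208a, Mir208b and Mir499, in myosin heavy chain genes, had 1174 ± 46.3 CPM, and the Mir128 genes had 1085 ± 182 CPM. Mir103-1, Mir103-2 and Mir107, in pantothenate kinase genes, had 281 ± 68.3 CPM. Mir26a-1, Mir26a-2 and all genes of the Mir103 and Mir128 sets share at least 20 bases with another locus, so both the split within those sets and their sums are uncertain, since reads that map to several places were not counted. Of the 13 genes of these sets, 5 were higher in replicate 1 beyond counting error, Mir148b and Mir152 among them, and 5 were higher in replicate 2. Over all tested genes the shares were 23.1% and 26.0% with TMM. With total-count scaling the numbers were 5 and 3 of the 13, beside 118 and 64 of the 373 tested genes. The median log2 ratio over the 13 was 0.11 (-0.028 with total-count scaling).

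Counts on the opposite strand were 0 at Mir148a and Mir148b in both libraries and 1 per library at Mir152. A count of 0 allows up to 3 counts at this depth, or 0.799 CPM in replicate 1 and 0.584 CPM in replicate 2, and every level of the family lay above this limit.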

How the data were processed

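The authors deposited whole-number read counts per miRNA gene for each library, on build mm10 with annotation M4, per the files deposited with each library. The aligner and counting program are not given in the sources used here. The first count column equalled the sum of the other 2 in every gene, so it was read as counts on either strand. That sum does not tell which of the other 2 is the own strand. The second was taken as the gene's own strand and used for all main values. At the 3 members nearly all counts lay in it, with 0 or 1 per library in the third. The 4 summary lines stayed out of library sizes. Multimapping reads, unmapped reads and reads on no gene's own strand were 30.2%, 9.66% and 7.56% of reads in replicate 1. In replicate 2 they were 29.9%, 10.1% and 8.44%. The last group can hold reads on the opposite strand of a gene. Names and places came from GENCODE M21 (1894 of 1973 identifiers matched), and sequences from RefSeq, where all 3 members matched.

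CPM used own-strand totals. Ratios used edgeR 4.0.16 TMM factors (R 4.3.3) with 0.5 added to each count. Genes with at least 10 counts in total entered a two-sided exact binomial test (scipy 1.17.1), adjusted by Benjamini-Hochberg at 0.05, with and without a 2-fold minimum. The procedure was tested on simulated data. The simulated counts held counting error and set differences only, without further spread between libraries, and TMM scaling was left out. Named genes were the members, 2 rank neighbours on each side, the 3 nearest genes by level and ratio, and genes of the lists. The members and the 12 lists were chosen with earlier results of these data known. Alternatives were either-strand counts, other denominators, filters, pseudocounts, DESeq2 1.42.0 size factors, total-count scaling and each library alone.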

Additional observations from a re-analysis of the deposited data

How the results depend on the processing

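Over 9 settings of scaling, filter, strand and pseudocount, including the one reported, each member stayed higher in replicate 1 beyond counting error and under 2-fold. The pseudocount enters only the log2 ratio, so the settings that change it could not alter the adjusted p. The log2 ratio ran from -0.88 to -0.74 for Mir148a, from -0.33 to -0.20 for Mir148b and from -0.28 to -0.15 for Mir152. The lowest values came with total-count scaling. That scaling shifts every log2 ratio by the same amount, so how a member's absolute difference compares with other genes depends on it. The largest adjusted p (exact binomial test) over these settings was 0.0353 for Mir148b and 0.0121 for Mir152. With all reads as the denominator the mean levels were 429 CPM for Mir148a, 191 CPM for Mir152 and 85.9 CPM for Mir148b, and the family share was 0.0706%, because the denominator grows. Counts of either strand gave 735, 328 and 147 CPM. A single library gave family shares from 0.106% to 0.165%. The biological coefficient of variation was 0.324 with at least 50 counts and 0.331 with total-count scaling, against 0.319. Ranks among the 311 genes detected in both libraries were the same as over all genes. No paired analysis was possible because the labels form a single group. With 2 pups, no spread between animals can be separated from that between preparations.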
